A study of Mus musculus with 18 samples.

Results

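The regions described here were 309 intergenic peaks of RNA polymerase II in the mouse heart, taken from a set of 101256 peaks that were called over all immunoprecipitations of the study and merged, the union peaks. They were selected on measured values. A peak had to lie on one of the autosomes 1 to 19, carry no gene in the deposited annotation and lie outside the start to stop interval of the 20914 genes that this annotation names. Its mean value over 6 RNA polymerase II libraries had to be at least 50, and its mean over 6 CTCF libraries had to be below 20. Of the 61738 autosomal peaks without a gene, 4085 reached the RNA polymerase II limit, 734 of these stayed under the CTCF limit, and 309 of those were outside all listed genes. The mean RNA polymerase II and CTCF values of these peaks are therefore a description and not a result.

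Enhancers are stretches of DNA that bind transcription factors and raise the transcription of a promoter from a distance. Active enhancers recruit RNA polymerase II and are often transcribed into short, unstable enhancer RNAs, so a peak of polymerase away from genes marks a candidate enhancer. In the heart, enhancers bound by cardiac transcription factors help to set the expression of contractile, ion channel and metabolic genes. Polymerase between genes can also belong to an unannotated transcript, or to polymerase that runs past the end of a gene. CTCF is a DNA-binding protein that marks chromatin boundaries and loop anchors, and the CTCF limit keeps such sites out. The libraries used here carry no histone mark of active enhancers and no transcription factor other than CTCF, so the word enhancer stays a working name.

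Chromatin of adult ventricles from pooled hearts was precipitated with an antibody against RPB1, the largest subunit of RNA polymerase II. Each of the 3 genotypes had 2 RNA polymerase II libraries, 2 CTCF libraries and 1 IgG library as background. *Trdn-as* KO mice were homozygous for a polyA signal placed in the first exon of *Trdn-as*, a long non-coding RNA made antisense to the triadin gene, were derived from edited embryonic stem cells and had been crossed to C57BL/6. *Mettl3* KO mice (Mettl3lox/lox:alphaMHC-MerCreMerpos) had received tamoxifen, which activates a Cre that the alphaMHC promoter makes in cardiomyocytes, so that these cells lose the RNA m6A methyltransferase METTL3 while other cells of the heart keep it. The control libraries are labelled WT, without mention of tamoxifen, while the methods describe tamoxifen-treated Mettl3 lox/lox mice without Cre as controls of that line. The labels also do not say that replicate libraries came from separate animals, so p-values measure the spread between these libraries.

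The deposited values are the authors' normalized signal, which is the number of reads in a peak divided by a size factor for the library. The RNA polymerase II libraries held between 1991582 and 4949625 reads in union peaks, 35.6% to 42.5% of the uniquely mapped reads in 5 of them and 18.6% in *Trdn-as* KO replicate 2. Promoter peaks of sarcomere genes had a mean of at least 50 for 29 of the 31 listed genes found in the table, and 0 of 4 found genes of other tissues did. At the *Trdn-as* promoter the values were 530 and 595 (WT), 140 and 100 (*Trdn-as* KO) and 503 and 491 (*Mettl3* KO). At the *Mettl3* promoter they were 177 and 202 (WT), 203 and 161 (*Trdn-as* KO) and 240 and 235 (*Mettl3* KO), so this peak did not show a loss in *Mettl3* KO, and polymerase at a promoter does not measure whether the floxed part was deleted. Peaks on chromosome Y, which were not among the peaks described here, summed to 0 in both *Trdn-as* KO libraries and to between 223 and 326 in the others, the pattern that a difference in sex would give, so that sex and genotype cannot be told apart in comparisons with *Trdn-as* KO. The tissue was whole ventricle, and a change in the number of cells of a type cannot be told apart from a change per cell.

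The 309 peaks were short, with a median length of 705 nt and a range from 385 to 1808 nt, and all autosomes held some, from 8 on chromosome 18 to 27 on chromosome 17. The median distance to the nearest gene of the table was 16392 nt, and the range ran from 28 to 659195 nt. The nearest gene was protein coding for 185 peaks and a long non-coding RNA for 76. There were 73 peaks within 10000 nt downstream of a gene end, 37 within 10000 nt upstream of a gene start, 150 at 10000 to 50000 nt and 49 farther away. All 32 peaks within 5000 nt of a gene were downstream of it. This follows from the annotation, in which a peak within 5000 nt of a gene start carries the name of that gene and so could not be chosen. The same rule lowers the number of peaks within 10000 nt upstream.

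**Figure D1:**
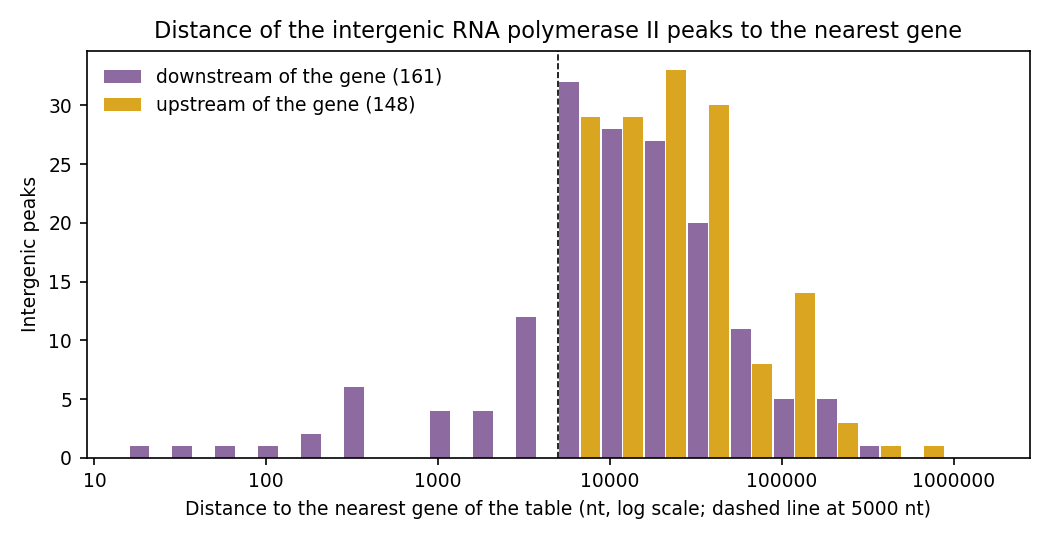
Number of intergenic peaks by distance to the nearest gene of the deposited annotation (nt, log scale), for the 161 peaks downstream and the 148 peaks upstream of that gene. Bars to the left of the dashed line at 5000 nt hold downstream peaks alone, and most peaks of both kinds lie to its right.

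Whether a peak is intergenic rests on the genes that the table lists. The flanking genes of 265 peaks were found in the GENCODE annotation of the older GRCm38 build, where gene order could be read but positions could not be compared with the GRCm39 coordinates used here. For 85 peaks no other gene stood between the flanking genes, and for 90 peaks at least 1 further protein-coding gene did. Among the 10 peaks with the highest mean, 5 had such a gene in the gap, among them *Pecam1*, an adhesion molecule of endothelial cells, *Pde4dip*, a phosphodiesterase-interacting protein, and *Xirp2*, an actin-binding protein of striated muscle. Further coding genes in the gaps of other peaks named below were *Grip2* for *Slc6a6*, *Fer* for *A930002H24Rik*, *Dcaf6* and *Gpr161* for *Tiprl* and *Anpep* for *Ap3s2*. They were also *Gjd2* for *Actc1*, *Gnat3* for *Cd36*, *AI597479* for *Fhl2*, *Nfe2l3* for *Hnrnpa2b1*, *Plekha6* for *Gm19461* and *Dlg2* for *Ccdc90b*. Whether any of these peaks lies inside an unlisted gene was not determined.

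The signal was modest. The mean over the 6 libraries had a median of 63.5 and a highest value of 185.8, and 75.4% of the peaks stayed below 75. The peaks nearest to the RNA polymerase II limit were chr17:29638769-29639394 and chr4:55672144-55672753 at 50.2 on the inner side, and chr1:167252733-167253632 and chr10:99435088-99435491 at 49.8 on the outer side. For CTCF they were chr7:138853205-138853955 and chr4:135844169-135844892 at 19.8 within it, and chr15:3991570-3992260 and chr8:13259543-13260148 at exactly 20 outside. All 309 peaks passed the filter on low values that preceded the tests, which the selection on the mean nearly ensures. The limit was reached only through the *Mettl3* KO libraries at 40 peaks, only through the WT libraries at 36 and only through the *Trdn-as* KO libraries at 16, in that the other 4 libraries had a mean below 50. At such a peak the selection favours higher values in that genotype, so its fold change and p in a comparison with that genotype are a description and no support. The coefficient of variation between the replicate libraries of a genotype had a median of 11.0% in WT, 18.8% in *Trdn-as* KO and 12.0% in *Mettl3* KO. In *Trdn-as* KO the second library was the lower one at 257 of the 309 peaks.

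The highest mean belonged to chr18:5427649-5428211, 57167 nt upstream of AC111128.2 and 92842 nt upstream of the zinc finger gene *Zfp438*. Its values were 153 and 160 (WT), 207 and 153 (*Trdn-as* KO) and 226 and 216 (*Mettl3* KO). Both *Mettl3* KO libraries were the highest, but the difference from WT did not pass the test (log2 fold change 0.50, SE 0.21, adjusted p = 0.24 from limma). The next was chr11:106605763-106606533, 35519 nt upstream of *Milr1*, a receptor of mast cells, with *Pecam1* as the further gene in the same gap. It had 178 and 199 (WT), 201 and 200 (*Trdn-as* KO) and 137 and 173 (*Mettl3* KO), while the promoter peak of *Milr1* itself stayed between 12 and 34 in all libraries. At chr6:91772184-91773454, which lies 36137 nt downstream of the taurine transporter gene *Slc6a6*, the WT values of 94 and 146 were below those of 214 and 208 in *Mettl3* KO, and *Trdn-as* KO, with 180 and 138, overlapped WT. This difference between *Mettl3* KO and WT passed the test (0.84, SE 0.23, adjusted p = 0.041 from limma), while the *Slc6a6* promoter had 434 and 478 (WT) and 453 and 488 (*Mettl3* KO).

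The other peaks of this group of 10 lay near *A930002H24Rik*, *Gm9791*, *Gm45202*, *S1pr1*, *Sec22b*, *Cyb5b* and *B3galt1*. At chr17:64156284-64157001, 13294 nt downstream of *A930002H24Rik*, values were 127 and 142 (WT), 162 and 112 (*Trdn-as* KO) and 206 and 179 (*Mettl3* KO). At chr7:79810577-79811127, 25462 nt upstream of *Sema4b*, which codes for a semaphorin, they were 136 and 132, 138 and 90, and 183 and 179 in the same order. In both cases the *Mettl3* KO libraries were above all the others, with adjusted p = 0.25 and 0.36 from limma against WT. At chr3:97709211-97710451, 98055 nt upstream of the vesicle trafficking gene *Sec22b*, the 6 values ran from 110 to 147 and the genotypes overlapped. At chr8:107866059-107866733, 10539 nt upstream of *Cyb5b*, a cytochrome b5 of the outer mitochondrial membrane, they ran from 83 to 153, with *Trdn-as* KO replicate 2 the lowest. The range at chr2:67276131-67276641, 119574 nt upstream of the galactosyltransferase gene *B3galt1*, was 83 to 143, and here WT replicate 1 was the lowest.

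Most peaks stood alone. Joining neighbouring peaks, up to 9217 nt apart, gave 22 groups, 20 of 2 peaks and 2 of 3, which together held 46 peaks, and the remaining 263 had no such neighbour. The strongest group spanned 8359 nt, from chr3:115551970 to 115560328, and began 43249 nt upstream of *S1pr1*, which codes for a sphingosine-1-phosphate receptor that is abundant in endothelium. Its 3 peaks summed to 259 and 362 (WT), 249 and 194 (*Trdn-as* KO) and 276 and 251 (*Mettl3* KO). Its highest peak, chr3:115559545-115560328, had 118 and 186 (WT), 126 and 100 (*Trdn-as* KO) and 155 and 118 (*Mettl3* KO). The WT libraries alone spanned nearly the whole range, and no comparison passed the test. A group of 3 peaks within 4003 nt on chromosome 1 lay near *Gm19461*, and its member chr1:133166830-133167681 had 38 and 58 (WT), 46 and 20 (*Trdn-as* KO) and 86 and 72 (*Mettl3* KO). Near *Fxr1*, which codes for an RNA-binding protein of muscle, chr3:34043340-34044260 held between 134 and 168 in all libraries. Its neighbour chr3:34047582-34048562 had 91 and 92 (WT), 87 and 51 (*Trdn-as* KO) and 51 and 42 (*Mettl3* KO), which did not pass the test (*Mettl3* KO against WT -0.97, SE 0.29, adjusted p = 0.079 from limma).

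To set the signal against background, values were turned into reads per 1000000 uniquely mapped reads (RPM). Summed over the 309 peaks, RNA polymerase II exceeded IgG 9.68-fold and 11.3-fold in the WT libraries, 8.18-fold and 4.03-fold in *Trdn-as* KO and 7.99-fold and 8.25-fold in *Mettl3* KO. Both RNA polymerase II libraries were above the IgG library of their genotype at 309 peaks in WT, 303 in *Trdn-as* KO and 309 in *Mettl3* KO. Scaled to the reads in union peaks instead, where the low share of IgG reads in peaks no longer counts, the ratios were 1.27 (WT), 1.15 (*Trdn-as* KO) and 1.13 (*Mettl3* KO). With a median of 3 IgG reads a peak in *Trdn-as* KO, 5 in *Mettl3* KO and 10 in WT, the IgG value of a single peak is coarse.

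**Figure D2:**
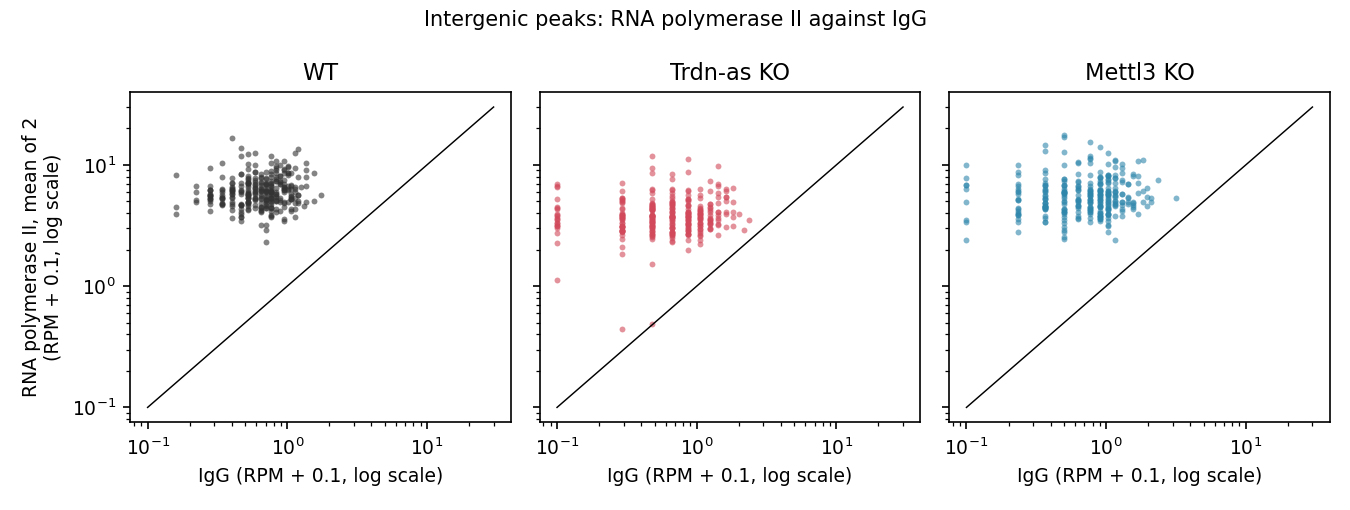
RNA polymerase II (mean of 2 libraries) against IgG (1 library) at the 309 intergenic peaks, both in RPM + 0.1 on log scales, with 1 panel per genotype and the line of equality. All points lie above the line in WT and *Mettl3* KO, and in *Trdn-as* KO, where they also stay above it, 8 points lie within 2-fold of the line and the lowest ratio is 1.02.

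The 3 peaks with the highest mean IgG were chr11:6232853-6233435 near *Tmed4*, chr17:26713580-26714687 and chr6:51432802-51434272 near *Hnrnpa2b1*. At the first the IgG values were 31, 13 and 106 in WT, *Trdn-as* KO and *Mettl3* KO, against 43 to 66 for RNA polymerase II. At the second they were 51, 72 and 28 against 41 to 58, and at the third, 3640 nt downstream of the RNA-binding protein gene *Hnrnpa2b1*, 61, 26 and 78 against 65 to 102. The size factors raise the values of the IgG libraries, in which only 4.9% to 5.7% of the uniquely mapped reads were in union peaks. In RPM the lower RNA polymerase II library was above IgG in all genotypes near *Tmed4* and *Hnrnpa2b1*. At the first, *Mettl3* KO had 4.96 and 5.44 RPM against 3.06 RPM of IgG. At the second, *Trdn-as* KO had 3.72 and 1.87 RPM against 2.09 RPM of IgG. In the comparisons of genotypes their adjusted p from limma ran from 0.40 to 0.99.

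Comparison of *Trdn-as* KO with WT asked whether loss of the antisense RNA changes polymerase at sites far from the edited locus. Of the 309 peaks, 5 fell and 0 rose (limma on log2(value + 1) over all 52655 tested peaks, Benjamini-Hochberg adjusted p below 0.05). Among all tested peaks 0.224% fell and 0.0798% rose. At an unadjusted p below 0.05 from limma, 29 of the intergenic peaks were lower, against 5.52% of all tested peaks, and 7 higher, against 2.18% of all tested peaks. Both *Trdn-as* KO libraries were below both WT libraries at 94 peaks (30.4%, against 19.1% of all tested peaks) and above them at 31 (10.0%, against 12.9% of all tested peaks), and at 184 the genotypes overlapped. The median log2 fold change was -0.18 for the intergenic peaks and -0.07 for all tested peaks. The intergenic median became 0.05 without *Trdn-as* KO replicate 2 and -0.77 when libraries were scaled to uniquely mapped reads, which moved that of all tested peaks to -0.66. The number of peaks that fell was 20 without *Trdn-as* KO replicate 1 and 2 without any one of the other 5 libraries, namely those near AC132307.2 and the first near *Elovl7*. The calls at the second *Elovl7* peak and at the peaks near *Gm2058* and *Teddm2* were then lost, with adjusted p from 0.11 to 1 from limma. A genotype left with 1 library was assumed to vary like the others. The limit of 50 was reached only through *Mettl3* KO at 3 of the 5 peaks and only through WT at the *Teddm2* peak. No peak passed without the filter on low values or without a variance trend (0 in each, against 42 and 13 at an unadjusted p below 0.05 from limma).

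The deepest loss was at chr13:108429490-108430324, 7273 nt downstream of *Elovl7*, which codes for an elongase of long-chain fatty acids. Values were 75 and 72 (WT), 7 and 4 (*Trdn-as* KO) and 120 and 134 (*Mettl3* KO). The *Trdn-as* KO libraries were far below the other 4, and 7.5% of the mean WT signal was left (log2 fold change -3.56, SE 0.35, adjusted p = 4.2e-11 from limma). A second peak of the same gap, chr13:108433782-108434611, had 94 and 114 (WT), 46 and 43 (*Trdn-as* KO) and 162 and 158 (*Mettl3* KO). It kept 42.8% of the WT mean (-1.20, SE 0.26, adjusted p = 0.011 from limma), with no overlap between any of the 3 genotypes. The promoter peak of *Elovl7* was low in every library, with 30 and 23 (WT), 6 and 10 (*Trdn-as* KO) and 50 and 51 (*Mettl3* KO), and its difference from WT missed the threshold (-1.64, adjusted p = 0.078 from limma), while the difference between the knockouts passed (-2.55, adjusted p = 1.4e-04 from limma).

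A similar loss was found at chr18:65651831-65652679, 6545 nt downstream of AC132307.2 and 39693 nt downstream of *Malt1*, which codes for a signalling protease of lymphocytes. Values were 82 and 79 (WT), 7 and 6 (*Trdn-as* KO) and 114 and 77 (*Mettl3* KO). Again the *Trdn-as* KO libraries stood alone, with 8.1% of the WT mean left (-3.44, SE 0.35, adjusted p = 1.3e-10 from limma), while the *Malt1* promoter had 313 and 289 (WT) and 352 and 236 (*Trdn-as* KO). At chr7:39304804-39305394, 65663 nt downstream of *Gm2058*, values were 54 and 69 (WT), 21 and 12 (*Trdn-as* KO) and 80 and 88 (*Mettl3* KO). Here 26.8% was left (-1.88, SE 0.34, adjusted p = 6e-04 from limma) and the genotypes did not overlap.

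The fifth peak, chr1:153785656-153787126, lay 9682 nt upstream of *Teddm2*, with *Glul*, the gene of glutamine synthetase, in the same gap of the older annotation. It was the one peak that fell in both knockouts, with 105 and 118 (WT), 65 and 31 (*Trdn-as* KO) and 36 and 53 (*Mettl3* KO). All knockout libraries were below both WT libraries (*Trdn-as* KO -1.29, SE 0.31, adjusted p = 0.038, *Mettl3* KO -1.33, SE 0.31, adjusted p = 0.015, both from limma), and both comparisons use the same WT libraries. The *Teddm2* promoter had between 702 and 921 in all libraries.

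At 4 of these 5 peaks both CTCF libraries of *Trdn-as* KO were below the other 4, as they were at 36 of all 309 peaks. Near *Elovl7* the CTCF values at chr13:108429490-108430324 were 15 and 14 (WT), 2 and 2 (*Trdn-as* KO) and 11 and 15 (*Mettl3* KO). At chr7:39304804-39305394 they were 7 and 9, 1 and 2, and 4 and 6. At chr18:65651831-65652679 they were 15 and 12, 6 and 5, and 11 and 10. These are values of a second antibody, and they are low by selection. Among all 309 peaks the summed CTCF value in *Trdn-as* KO had a median of 91.2% of WT, and the 5 lowest shares, from 13.8% to 51.4%, belonged to both *Elovl7* peaks, the *Gm2058* and AC132307.2 peaks and chr17:28044932-28045662. The IgG libraries had 1.15, 0.190 and 0.93 RPM at the first *Elovl7* peak in WT, *Trdn-as* KO and *Mettl3* KO, against 0.497 and 0.187 RPM for RNA polymerase II in *Trdn-as* KO. At the chr18 peak RNA polymerase II held 0.497 and 0.281 RPM in *Trdn-as* KO against 0.380 RPM of IgG, so at both peaks 1 library was below its IgG background. The part of the CTCF and IgG differences in the result was not tested.

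In *Mettl3* KO against WT, 9 intergenic peaks rose and 6 fell, in a background where 0.712% of all tested peaks rose and 0.482% fell. Unadjusted p-values below 0.05 from limma were found for 34 peaks higher in *Mettl3* KO, against 9.83% of all tested peaks, and 28 lower, against 5.67% of all tested peaks. Both *Mettl3* KO libraries were above both WT libraries at 93 peaks (30.1%, against 31.2% of all tested peaks) and below them at 89 (28.8%, against 19.5% of all tested peaks). The median log2 fold change was 0.01 for the intergenic peaks and 0.08 for all tested peaks. The direction of the balance depended on scaling, since 13 rose and 19 fell when every library was given the same total signal. When any 1 of the 4 libraries compared was left out, at most 1 peak passed, and when any 1 *Trdn-as* KO library was left out of the shared model, 38 did. No peak passed without the filter on low values, without a variance trend or when libraries were scaled to uniquely mapped reads (0 in each, against 62, 38 and 18 at an unadjusted p below 0.05 from limma). The limit of 50 was reached only through *Mettl3* KO at 3 of the 9 peaks that rose, near *Col1a1*, *Acox3* and ENSMUSG00000121188, and only through WT at 5 of the 6 that fell, all but the *Atp2a2* peak.

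The largest log2 fold change, which the selection favours here, was at chr11:94764548-94765378, 11963 nt upstream of *A430060F13Rik* and 61672 nt upstream of *Col1a1*, the gene of the alpha 1 chain of type I collagen. Values were 19 and 31 (WT), 36 and 39 (*Trdn-as* KO) and 98 and 104 (*Mettl3* KO). The *Mettl3* KO libraries were above all others, at 404% of the WT mean (log2 fold change 2.01, SE 0.33, adjusted p = 1.2e-04 from limma). The promoter of *Col1a1* had 163 and 161 (WT), 253 and 165 (*Trdn-as* KO) and 373 and 370 (*Mettl3* KO) and rose as well (1.19, SE 0.20, adjusted p = 1.9e-04 from limma). That of the nearer gene, *A430060F13Rik*, was low, with 4 and 23 (WT), 18 and 24 (*Trdn-as* KO) and 5 and 11 (*Mettl3* KO). It did not rise in *Mettl3* KO (-0.37, SE 0.62, adjusted p = 0.82 from limma).

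A peak near the other chain of type I collagen moved the same way. At chr6:4456772-4458095, 25379 nt downstream of *Gm37883* and 46719 nt upstream of *Col1a2*, values were 87 and 68 (WT), 109 and 77 (*Trdn-as* KO) and 203 and 149 (*Mettl3* KO). The *Mettl3* KO libraries were the highest, at 227.1% of WT (1.17, SE 0.25, adjusted p = 0.0064 from limma), and the *Col1a2* promoter went from 147 and 153 to 336 and 307 (1.09, adjusted p = 0.0016 from limma). The *Gm37883* promoter had 54 and 38 (WT) and 105 and 78 (*Mettl3* KO), which did not pass the test (0.98, adjusted p = 0.1 from limma). Type I collagen is the main fibrillar matrix protein made by fibroblasts. A list of 18 fibroblast and matrix symbols stood for 16 genes, since it held *Ccn1* and *Ccn2* under their older symbols too. All 16 had a promoter peak, of which 5 rose in *Mettl3* KO (*Col1a1*, *Col1a2*, *Col3a1*, *Pdgfra* and *Tcf21*) at an adjusted p below 0.05 from limma. The median log2 fold change of the 16 was 0.71. For comparison, 0.712% of all tested peaks rose, with a median of 0.08. The promoter signal summed over this list was 4494 and 4676 (WT), 4966 and 3818 (*Trdn-as* KO) and 6083 and 6001 (*Mettl3* KO). Over the same libraries the endothelial list of 23 promoters summed to 7014 and 7205, 7300 and 5769, and 6422 and 6228, with a median log2 fold change of -0.18 in *Mettl3* KO over 21 tested promoters. In the smooth muscle and pericyte list 1 of 10 promoters rose in *Mettl3* KO, that of the pericyte receptor gene *Pdgfrb* (0.78, adjusted p = 0.016 from limma). In the leukocyte list 1 of 10 rose, that of *Spi1*, a myeloid transcription factor gene (1.19, adjusted p = 0.023 from limma). The sums over these lists were 800 and 925 (WT) and 1059 and 1028 (*Mettl3* KO) for the first, and 424 and 461 (WT) and 506 and 444 (*Mettl3* KO) for the second. The part of these lists in the change at the intergenic peaks was not tested.

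Of the other peaks that rose, chr5:35781940-35782631 was 9244 nt downstream of *Acox3*, a peroxisomal acyl-CoA oxidase gene, with 29 and 35 (WT), 41 and 45 (*Trdn-as* KO) and 90 and 83 (*Mettl3* KO) (1.41, SE 0.31, adjusted p = 0.0086 from limma). It shares its gap with chr5:35804791-35805950, 3417 nt downstream of *Htra3*, a secreted serine protease gene, which had 49 and 57, 80 and 47, and 126 and 114 (1.17, SE 0.28, adjusted p = 0.021 from limma). At both, the *Mettl3* KO libraries were the highest. The *Htra3* promoter rose too (0.97, adjusted p = 0.016 from limma), and that of *Acox3* had 214 and 204 (WT) and 251 and 226 (*Mettl3* KO) (adjusted p = 0.68 from limma).

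At chr1:165108937-165109726, 44372 nt upstream of *Tiprl*, which codes for a regulator of TOR signalling, values were 63 and 60 (WT), 88 and 63 (*Trdn-as* KO) and 156 and 130 (*Mettl3* KO) (1.20, SE 0.26, adjusted p = 0.0078 from limma). A peak 5252 nt upstream of ENSMUSG00000121188, at chr8:122860567-122861499, had 27 and 43, 54 and 37, and 107 and 78 in the same order (1.40, SE 0.32, adjusted p = 0.012 from limma). Values at chr12:9634745-9635408, 3245 nt downstream of *Osr1*, a transcription factor gene of mesenchyme, were 53 and 46, 68 and 45, and 137 and 82 (1.09, adjusted p = 0.046 from limma). In each of these 3 the *Mettl3* KO libraries lay above the other 4, and the *Osr1* promoter rose by the same log2 fold change of 1.09 (adjusted p = 0.036 from limma). The remaining one was chr7:79497564-79498243, 26830 nt downstream of *Ap3s2*, with 64 and 82 (WT) and 143 and 152 (*Mettl3* KO).

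At the nearest coding promoters of the 6 peaks that fell in *Mettl3* KO, the adjusted p from limma ran from 0.19 to 0.87. At chr8:10702969-10703928, 154760 nt downstream of *Rps16-ps3* and 330753 nt downstream of *Irs2*, the gene of an insulin receptor substrate, with *Abhd13*, *Myo16* and *Tnfsf13b* as further coding genes in the gap, values were 86 and 120 (WT), 64 and 75 (*Trdn-as* KO) and 34 and 26 (*Mettl3* KO). The genotypes did not overlap, and 29.1% of the WT mean was left in *Mettl3* KO (-1.74, SE 0.30, adjusted p = 2.9e-04 from limma). The peak chr5:122660112-122661297 lay 15160 nt downstream of *Gm22965* and 19824 nt upstream of *Atp2a2*, which codes for the calcium pump of the sarcoplasmic reticulum. Its values were 106 and 87 (WT), 93 and 83 (*Trdn-as* KO) and 54 and 27 (*Mettl3* KO). Both *Mettl3* KO libraries were below the other 4 (-1.31, SE 0.29, adjusted p = 0.01 from limma). The *Atp2a2* promoter had 2762 and 2932 (WT) and 2267 and 2417 (*Mettl3* KO), a difference that did not pass the test (-0.28, adjusted p = 0.19 from limma). That of the nearer *Gm22965* had 950 and 1021 (WT) and 697 and 706 (*Mettl3* KO) and just missed the threshold (-0.49, adjusted p = 0.052 from limma).

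Values of 86 and 56 (WT), 84 and 55 (*Trdn-as* KO) and 38 and 21 (*Mettl3* KO) were found at chr1:167250059-167250827, 22411 nt downstream of *Lrrc52*, a potassium channel auxiliary subunit gene (-1.26, SE 0.33, adjusted p = 0.033 from limma). At chr5:111621291-111621838, 16392 nt downstream of the transcriptional regulator gene *Mn1*, they were 71 and 70, 63 and 49, and 40 and 22 (-1.22, SE 0.32, adjusted p = 0.04 from limma). The sixth was chr7:44333009-44333634, 12742 nt upstream of the non-muscle myosin gene *Myh14*, with 74 and 60, 66 and 55, and 28 and 30 (-1.17, adjusted p = 0.043 from limma). At all 3 the *Mettl3* KO libraries were the lowest, and *Trdn-as* KO overlapped WT at *Lrrc52* and *Myh14*. The *Mn1* promoter held 330 and 338 (WT) and 471 and 386 (*Mettl3* KO) (adjusted p = 0.31 from limma).

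**Figure D3:**
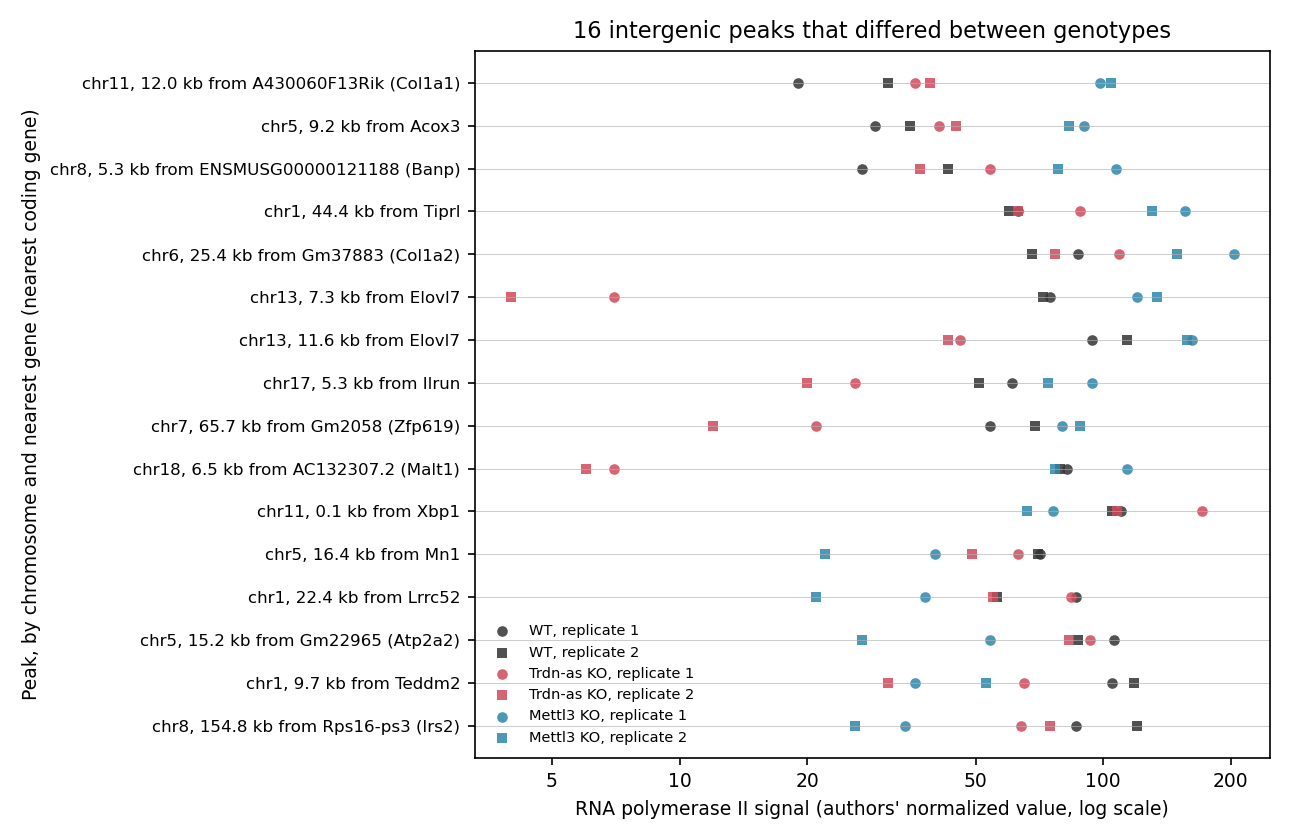
RNA polymerase II signal (authors' normalized value, log scale) in each of the 6 libraries at 16 of the 28 intergenic peaks that passed a test, with colour for genotype and shape for replicate. They were chosen by smallest adjusted p and no overlap between the compared genotypes, so the separation of the points follows from the choice. Labels give the chromosome, the nearest gene and its distance, and the nearest coding gene in parentheses. The *Trdn-as* KO points stand far to the left at the first *Elovl7* peak and at the chr18 peak, and the *Mettl3* KO points stand to the right at the top and to the left at the bottom.

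The knockouts were also compared with each other, which tests whether the change from WT differed between them. Of the intergenic peaks, *Trdn-as* KO was below *Mettl3* KO at 14 and above it at 4, against 1.15% and 0.355% of all tested peaks. Both libraries were lower at 107 peaks (34.6%, against 29.9% of all tested peaks) and higher at 44 (14.2%, against 13.9% of all tested peaks). The median log2 fold change was -0.15 for the intergenic peaks and -0.16 for all tested peaks, so the medians were alike. Whether the shares differ from those of all tested peaks was not tested. The split turned to 18 higher and 12 lower when every library was given the same total signal. Without *Trdn-as* KO replicate 1, 63 peaks passed, and without replicate 2, 6 did. With a WT library left out 5 passed, and with a *Mettl3* KO library left out 2 did. No peak passed without the filter or without a variance trend (0 in each, against 71 and 43 at an unadjusted p below 0.05 from limma). The limit of 50 was reached only through *Mettl3* KO at 11 of the 14 lower peaks.

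The 4 peaks that fell in *Trdn-as* KO without falling in *Mettl3* KO differed between the knockouts, with log2 fold changes of -4.34 and -1.82 at the *Elovl7* peaks (adjusted p = 1.8e-14 and 3.4e-06), -3.66 near AC132307.2 (adjusted p = 1.3e-11) and -2.33 near *Gm2058* (adjusted p = 4.8e-06), all from limma. This comparison uses the same *Trdn-as* KO libraries as that with WT. At all but the second *Elovl7* peak the limit of 50 was reached only through *Mettl3* KO. The differences between the knockouts at those peaks are therefore a description and no support. The log2 fold changes of the 14 lower peaks ran from -4.34 to -0.92, and the *Col1a1* and *Col1a2* peaks were among them (-1.41 and -0.92, adjusted p = 0.014 and 0.043 from limma). A peak 5310 nt upstream of *Ilrun*, at chr17:28044932-28045662, had 61 and 51 (WT), 26 and 20 (*Trdn-as* KO) and 94 and 74 (*Mettl3* KO). Its genotypes did not overlap, and it differed between the knockouts (-1.83, SE 0.32, adjusted p = 3.3e-04 from limma) while the comparison of *Trdn-as* KO with WT did not pass (-1.25, adjusted p = 0.064 from limma). Its neighbour chr17:28045723-28046271 had 74 and 50, 31 and 26, and 99 and 72 (-1.54, adjusted p = 0.003 from limma). CTCF at the first of these was 15 and 16 (WT), 6 and 8 (*Trdn-as* KO) and 14 and 18 (*Mettl3* KO). The *Ilrun* promoter had 410 and 360, 410 and 291, and 467 and 458 in the same order. At both *Ilrun* peaks and the *Col1a1* peak the limit of 50 was also reached only through *Mettl3* KO. Their differences between the knockouts are likewise a description and no support.

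The 4 peaks with more signal in *Trdn-as* KO were those near *Rps16-ps3*, *Atp2a2* and *Lrrc52*, where *Mettl3* KO had fallen, and chr11:5475958-5477765, which starts 65 nt downstream of *Xbp1*, a transcription factor gene of the unfolded protein response. The last had 110 and 105 (WT), 171 and 108 (*Trdn-as* KO) and 76 and 66 (*Mettl3* KO). The *Mettl3* KO libraries were the lowest (0.93, SE 0.25, adjusted p = 0.042 from limma), and neither knockout passed the test against WT (adjusted p = 0.83 and 0.24 from limma). In all, 28 of the 309 peaks passed in at least 1 comparison, against 2.44% of all tested peaks. Of these 28, 19 passed in a comparison with WT, against 1.47% of all tested peaks.

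**Figure D4:**
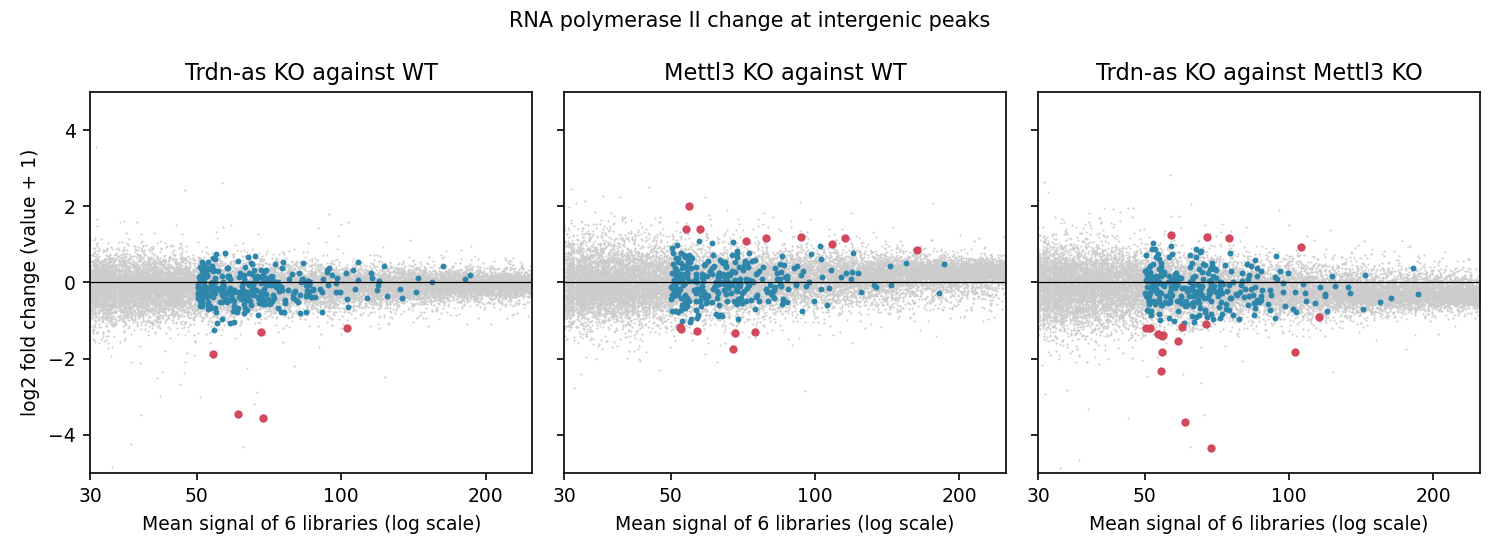
log2 fold change (value + 1) against the mean of 6 libraries (log scale) for the 3 comparisons, with intergenic peaks that passed the test in red, the other intergenic peaks in blue and all tested peaks with a mean of 30 to 250 in grey. In *Trdn-as* KO against WT a pair of peaks lies below -3, and in *Mettl3* KO against WT 9 red points lie above and 6 below zero.

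Intergenic peaks were set beside 425 peaks inside genes and 774 coding promoters that met the same limits on RNA polymerase II and CTCF. In *Trdn-as* KO against WT, 1 of the peaks inside genes rose and 8 fell, with a median log2 fold change of -0.20, and of the promoters 1 rose and 2 fell, with a median of -0.07. In *Mettl3* KO against WT, 7 rose and 6 fell inside genes (median -0.11), and 48 rose and 7 fell among the promoters (median 0.14). The intergenic median of 0.01 lay between these. Median mean signal was alike at 63.5 for intergenic peaks, 63.2 inside genes and 68.2 for the promoters. These differences between classes are descriptions and were not tested. By position, the median for *Trdn-as* KO against WT was -0.12 for the 73 peaks just downstream of a gene, -0.18 for the 37 just upstream, -0.16 at 10000 to 50000 nt and -0.26 beyond. For *Mettl3* KO it was -0.04, 0.02, 0.03 and -0.05 in the same order, so the medians differed little by position.

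The change at a peak followed that of the nearest coding promoter weakly. Over 300 peaks and 264 distinct promoters, Spearman's rho was 0.21 in *Trdn-as* KO against WT, 0.24 in *Mettl3* KO against WT and 0.078 in *Trdn-as* KO against *Mettl3* KO, and Pearson's r was 0.33, 0.29 and 0.28 in the same order. These correlations run across regions that share libraries and size factors, the regions are not independent, and no p is given. The median change of those promoters in *Mettl3* KO was 0.26, above that of the intergenic peaks. The nearest gene need not be the gene that a peak regulates, and no contact between them was measured.

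**Figure D5:**
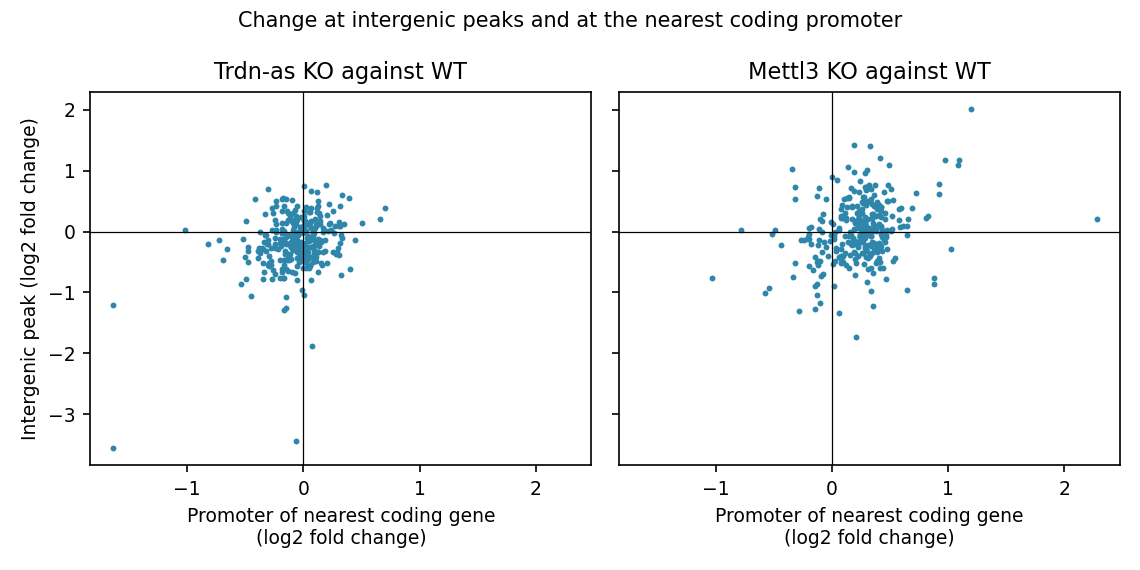
log2 fold change at 300 intergenic peaks (vertical) against that at the promoter of the nearest coding gene (horizontal), on one scale in both panels. The *Elovl7* pair lies at the lower left of the left panel, the *Col1a1* pair at the upper right of the right panel, and most points form a round cloud.

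Few peaks had a gene of the cardiac lists as their nearest gene of any kind. There was 1 for cardiac transcription factors, 3 for the sarcomere and Z-disc, 1 for calcium handling and ion channels, 1 for natriuretic peptides and stress, 1 for heart metabolism, 3 for immediate early genes and 1 for endothelium, and 0 for the clock, fibroblast, smooth muscle and leukocyte lists. Of these 11 peaks, 0 passed the test in any comparison with limma (2.44% of all tested peaks did), and 5 had an unadjusted p below 0.05 in at least 1 (29.2% of all tested peaks did). By the nearest coding gene the lists held 24 peaks, of which 4 passed in at least 1 comparison, against 2.44% of all tested peaks. These were the *Col1a1*, *Col1a2* and *Atp2a2* peaks described above and one whose nearest coding gene was the immediate early gene *Ier2*. The last, chr8:85228342-85229113, lay 158847 nt from *Ier2*, with *Cacna1a*, a calcium channel gene, as a further gene in the gap. It had 65 and 53 (WT), 49 and 41 (*Trdn-as* KO) and 104 and 91 (*Mettl3* KO) and differed between the knockouts (-1.10, adjusted p = 0.034 from limma). The peak chr2:113811059-113811824, 65939 nt downstream of the cardiac actin gene *Actc1*, had 114 and 119 (WT), 88 and 110 (*Trdn-as* KO) and 80 and 86 (*Mettl3* KO). WT was the highest, with a log2 fold change of -0.48 in *Mettl3* KO (SE 0.25, adjusted p = 0.34 from limma), and the *Actc1* promoter held 3429 to 4539. At chr4:148053697-148054264, 15981 nt upstream of *Nppb*, the gene of B-type natriuretic peptide, values ran from 47 to 91 and overlapped, while the *Nppb* promoter rose from 673 and 706 in WT to 1089 and 1088 in *Mettl3* KO (0.66, adjusted p = 0.0046 from limma). The peak chr1:190097154-190097741, 194243 nt upstream of the transcription factor gene *Prox1*, had 45 and 63, 48 and 37, and 59 and 61.

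Close to a gene end, chr1:43159614-43160611 lay 1623 nt downstream of *Fhl2*, a LIM protein gene, with 56 to 93. At chr11:110977457-110978017, 9810 nt downstream of *Kcnj2*, the gene of the inward rectifier Kir2.1, values ran from 48 to 78. At chr18:34998167-34999382, 130 nt downstream of the immediate early gene *Egr1*, they were 110 and 95 (WT), 64 and 55 (*Trdn-as* KO) and 54 and 72 (*Mettl3* KO). All knockout libraries were below WT there without passing the test (-0.78 and -0.70, adjusted p = 0.39 and 0.20 from limma). The peak near *Zfp36l1*, 179 nt from its end, overlapped between genotypes at 67 to 101. Near *Gadd45g*, 20034 nt away, values were 54 and 74 (WT), 49 and 49 (*Trdn-as* KO) and 62 and 91 (*Mettl3* KO), with *Trdn-as* KO below the other 4 libraries without passing the test (adjusted p = 0.86 against WT and 0.27 against *Mettl3* KO from limma). At chr5:18187659-18188195, 93860 nt upstream of the fatty acid translocase gene *Cd36*, values were 79 and 79 (WT), 64 and 29 (*Trdn-as* KO) and 69 and 82 (*Mettl3* KO). Near *Fabp4*, a fatty acid-binding protein gene that endothelium expresses, chr3:10281268-10281972 had 80 and 87, 45 and 61, and 96 and 75 (*Trdn-as* KO against WT -0.66, adjusted p = 0.54 from limma).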

How the data were processed

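Per the methods and the submitters' processing notes, the authors trimmed reads with Trimmomatic 0.39, aligned them with STAR 2.7.11b to mm39 (GRCm39), removed duplicates with Picard 3.1.1, called and merged peaks, counted reads with featureCounts and normalized with DESeq2 1.36.0. What was deposited is that signal as whole numbers, in 15 columns for single libraries, and the input libraries were left out. The worth of 1 read was found from the spacing between values, and RPM used the number of uniquely mapped reads that the Reporting Summary gives.

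The members and gene lists were chosen with earlier results of these data known. Genotypes were compared with limma 3.58.1 (R 4.3.3) on log2(value + 1), with a variance trend and all 3 genotypes in the model, for the 52655 peaks with at least 10 in at least 2 of 6 libraries, with Benjamini-Hochberg adjustment at 0.05 over all of them. A fold change on this scale understates the change of low values. The values are normalized, so no count model was used. With 2 libraries a genotype, an exact permutation test cannot reach a p below 0.33.

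Peaks were named by rule: the 10 with the highest mean, up to 5 in each direction per comparison with the smallest adjusted p and no overlap between genotypes, up to 3 per gene list, those nearest the limits, the 3 with the highest IgG and the 3 largest groups. The peaks near *Htra3*, *Osr1*, *Ap3s2*, *Myh14*, *Tnks2*, *Gm13657*, *Ccdc90b*, *Plcl2* and *Gm16183* (*Ier2*) and the second *Ilrun* peak were named after their values were seen. Distances run to the nearest gene interval of the deposited table, and symbols that the table lacks came from GENCODE M21 by gene ID for 5859 of 6928 genes. No sequence is shown, since the reference used here was GRCm38. Replicate numbers did not pair the libraries (r of the deviations -0.005, 0 and -0.01). Results were recomputed without the filter, with a pseudocount of 5, without the trend, with only the genotypes compared, with a replicate block, with 2 other scalings, on the autosomes alone, with stricter limits and without each library. Restriction to peaks without a further gene in the GRCm38 gene order was added after seeing the data. Python 3.11.15, pandas 2.3.3, numpy 2.4.6, scipy 1.17.1 and matplotlib 3.10.9 served for the other steps. The values of 1 peak near a listed gene are not reported here.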

Additional observations from a re-analysis of the deposited data

Results flagged for a closer look

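For 18 intergenic peaks the change from WT differed between the knockouts in limma's test of the difference (adjusted p below 0.05). At 11 of the 14 with less signal in *Trdn-as* KO, the limit on mean RNA polymerase II was reached only through *Mettl3* KO. These were all but the second *Elovl7* peak and the peaks near *Col1a2* and *Gm16183*. Their differences are therefore a description and no support. The log2 difference, *Trdn-as* KO minus *Mettl3* KO, was -4.337 and -1.824 at the peaks near *Elovl7*, -3.662 near AC132307.2, -2.328 near *Gm2058* and -1.826 and -1.539 at the peaks near *Ilrun*. It was -1.406 near *Col1a1*, -0.917 near *Col1a2*, -1.381 near *Tnks2*, -1.343 near *Gm19461*, -1.208 near *Gm13657*, -1.186 near *Ccdc90b*, -1.179 near *Plcl2* and -1.101 near *Gm16183*. It was 1.179 near *Atp2a2*, 1.193 near *Rps16-ps3*, 1.236 near *Lrrc52* and 0.931 near *Xbp1*. The causes were not tested.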

How the results depend on the processing

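Counts of called peaks are given in the order *Trdn-as* KO against WT (5 as reported), *Mettl3* KO against WT (15) and *Trdn-as* KO against *Mettl3* KO (18), and the cause of a change was not tested unless fewer regions explain it. Without the filter on low values, or without a variance trend, 0 passed in each, with 42, 62 and 71 and with 13, 38 and 43 at an unadjusted p below 0.05 from limma. With only the genotypes compared, 2, 38 and 5 passed. Equal total signal gave 6, 32 and 30. Uniquely mapped reads as library size gave 3, 0 and 6 (18 with an unadjusted p below 0.05 in the second) and moved the median of all tested peaks from -0.07 to -0.66, from 0.08 to -0.06 and from -0.16 to -0.60. Leaving out 1 library at a time gave 2 to 20, 0 to 38 and 2 to 63. Peaks with a mean of at least 100 (24 peaks) held 1, 3 and 3 calls, peaks with CTCF below 10 (29 peaks) 3, 0 and 5, and peaks with no further gene in the GRCm38 gene order (85 peaks) 1, 5 and 10. A pseudocount of 5 gave 6, 21 and 24, the autosomes alone 5, 15 and 18, and a replicate block 6, 18 and 21, and with the block, as with the pseudocount and the autosomes alone, the 24 calls at 16 peaks followed by the rule remained. The first *Elovl7* peak and the AC132307.2 peak stayed called against WT in 12 of 14 alternatives, with adjusted p from 4.3e-19 to 0.23 and from 1.3e-17 to 0.23. The *Gm2058* peak stayed in 6 and the second *Elovl7* and *Teddm2* peaks in 5. In *Mettl3* KO against WT the *Col1a1* peak stayed in 8 of 14 (2.3e-06 to 0.47) and the other 9 followed in 7. Between the knockouts the calls stayed in 4 (*Atp2a2* and *Lrrc52*) to 12 of 14. Of the 24 calls, 4 remained with either *Mettl3* KO library left out, and 7 or 8 with a WT library left out. No direction was reversed at these 16 peaks. RefSeq gene intervals of the build of the files were not run, as no annotation of that build was used here. With a median of 26 reads a peak in *Trdn-as* KO replicate 2 and 41 to 74 in the others, depth differed between libraries, and the smallest detectable change was not tested.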
